A study of Mus musculus with 2 samples.

Results

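Cxcl12 and its receptors are 3 genes, Cxcl12, Cxcr4 and Ackr3, picked by symbol from the 27998 genes counted in single cells of the mouse embryonic pharynx and heart. Each symbol matched 1 row of the gene list and none of them was used to cluster or name the cells. Cells came from Swiss Webster embryos at embryonic day 9.5. One group was Mesp1Cre;Rosa26-GFPflox/+ (Ctrl), and the other carried in addition the alleles Tbx1flox/flox (cKO), so both groups shared the Cre driver and the green fluorescent protein (GFP) reporter. The Mesp1 driver acts in early mesoderm. The pharyngeal apparatus with the heart was dissected and GFP-positive, DAPI-negative cells were kept by sorting. Sources of the ligand outside the Mesp1 lineage, such as neural crest, ectoderm and endoderm, were therefore not meant to be in these libraries. Each group had 1 library from pooled embryos, and the groups came from different crosses. By the study's methods the cKO embryos had slightly more somites, so genotype and stage cannot be told apart. With 1 library per group there was no test between genotypes. Every difference describes these 2 libraries, and every interval is a 95% interval for counting error only.

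Cxcl12 is a secreted chemokine that binds heparan sulphate around the cell that makes it and draws in cells carrying Cxcr4, a receptor coupled to inhibitory G proteins. Ackr3 is an atypical receptor that takes up and degrades Cxcl12 without coupling to G proteins, and so can lower the amount that neighbouring cells meet. In the embryo this system is known for guiding migrating muscle precursors, germ cells, neural crest and endothelium, and mice that lack any of these genes have heart or vessel defects.

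Cxcl12 lies on chromosome 6 (GRCm38, 117168535 to 117181368, ENSMUSG00000061353). Cxcr4 (128588199 to 128592299, ENSMUSG00000045382) and Ackr3 (90203980 to 90215724, ENSMUSG00000044337) are both on chromosome 1. The 250 bases before each annotated start are shown because a T-box factor is the gene that was targeted, and because 1 of the genes, Cxcr4, is a textbook target of hypoxia-inducible factor. They were read from RefSeq (GRCm38.p6), 5′ to 3′ on the strand of the gene, and capitals mark matches to GCGTG or TATAAA on either strand.
Cxcl12, chr6:117168285-117168534, plus strand: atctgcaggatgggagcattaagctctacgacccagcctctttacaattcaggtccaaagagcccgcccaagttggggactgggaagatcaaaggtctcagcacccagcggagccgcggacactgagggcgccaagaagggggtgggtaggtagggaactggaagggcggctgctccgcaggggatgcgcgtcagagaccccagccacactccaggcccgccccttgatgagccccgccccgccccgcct
Cxcr4, chr1:128592300-128592549, minus strand: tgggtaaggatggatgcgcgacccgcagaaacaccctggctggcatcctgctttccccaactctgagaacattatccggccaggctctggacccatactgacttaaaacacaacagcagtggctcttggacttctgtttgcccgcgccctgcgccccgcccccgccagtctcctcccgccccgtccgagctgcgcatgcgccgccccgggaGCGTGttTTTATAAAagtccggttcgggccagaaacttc
Ackr3, chr1:90203730-90203979, plus strand: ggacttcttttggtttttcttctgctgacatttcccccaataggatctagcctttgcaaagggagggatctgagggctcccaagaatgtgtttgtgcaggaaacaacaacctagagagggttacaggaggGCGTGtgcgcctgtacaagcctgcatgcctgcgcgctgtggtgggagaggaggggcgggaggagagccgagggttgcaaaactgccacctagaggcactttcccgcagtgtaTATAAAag

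Both strands were searched for 5 motifs. The T-box core GGTGTG, the E-box CANNTG and the hypoxia core ACGTG matched in none of the 3 windows, while 16.3%, 66.2% and 16.6% of 32851 annotated windows of the same length held them. The hypoxia core GCGTG, in 28.2% of all windows, began 39 bases before the start of Cxcr4 and 120 bases before that of Ackr3. TATAAA, in 12.4% of all windows, matched before Cxcr4 and Ackr3 and not before Cxcl12. In Cxcr4 its forward match began 30 bases before the start and overlapped a match on the other strand, and in Ackr3 it began 8 bases before. GC content was 64.4% for Cxcl12, 61.2% for Cxcr4 and 54.0% for Ackr3, against a median of 52.4% over all windows. A match is a description of these letters only, and a window without one holds no more than that.

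The deposited matrices held 7418 cells with 132017331 unique molecular identifiers (UMIs, 1 per captured transcript) for Ctrl and 10281 cells with 162874391 UMIs for cKO. After filters and removal of presumed doublets 6591 and 8969 cells remained, with medians of 16854 and 14192 UMIs. The libraries shared 15 cell barcodes. Clustering gave 25 clusters, of which 21 carried the name of a class from its markers and end in "-like". The names used below are BrM (branchiomeric muscle progenitors of the pharyngeal arches), MLP (multilineage primed progenitors), SoM/aSHF (somatic mesoderm with the anterior part of the second heart field), pSHF (posterior second heart field) and CM (cardiomyocytes), beside anatomical ones. The other 4 clusters are called by their leading genes. Of 19 populations, 17 had at least 50 cells in both libraries. Tbx1 itself was counted at 26.5 UMIs per 1000000 UMIs (CPM) over all kept cells in the library labelled Ctrl and at 44.5 in the library labelled cKO. It was at 67.8 and 134 CPM in MLP-like cells, at 121 and 95.4 in BrM-like cells and at 12.6 and 7.23 in endothelium-like cells, so over all cells the targeted gene went against its label. Where the floxed part lies relative to the counted 3′ end is not given in the sources used here, so these counts do not check the labels. Each deposited matrix holds as many cells as the study lists for a sample of the genotype on its label, and no sample of the other genotype is listed with that number. Aplnr, a receptor gene on the MLP marker list, differed widely between the libraries, being found after thinning in 162 of 628 Cxcr4-negative MLP-like cells (25.8%) labelled Ctrl and in 2 of 921 (0.217%) labelled cKO. The libraries are named by their labels throughout.

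In BrM-like cells Cxcr4 was lower and Cxcl12 higher in the library labelled cKO. Cxcr4 stood at 30.1 CPM (26.7 to 33.7, 299 UMIs in 521 cells) in the library labelled Ctrl and at 6.85 CPM (5.35 to 8.63, 71 UMIs in 686 cells) in the library labelled cKO, 4.39-fold lower (3.38 to 5.77). Cxcl12 went the other way, from 37.5 CPM (33.8 to 41.5, 373 UMIs) to 96.2 CPM (90.3 to 102, 998 UMIs), 2.57-fold higher (2.28 to 2.90). Ackr3 was low in both, at 2.01 CPM (1.23 to 3.1) and 2.41 CPM (1.56 to 3.56). Thus 2 of the 3 genes passed a 2-fold difference in these cells, 1 in each direction. Among 7648 genes with at least 10 CPM in a library and 30 UMIs in both together, 4.22% were at least 2-fold lower and 1.45% at least 2-fold higher there. An interval that does not hold 0 was common, being wholly below 0 for 41.0% of these genes and wholly above 0 for 19.9%, so the fold and not the interval is what sets a gene apart here.

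The share of cells with a UMI gave the same picture. Every cell was thinned to 5000 UMIs, since cells of the library labelled cKO were shallower (medians of 18459 and 14288 UMIs in BrM-like cells). Cxcr4 was then found in 70 of 518 BrM-like cells, 13.5% (10.7 to 16.8), and in 22 of 682, 3.23% (2.03 to 4.84). In CM-like cells, used as a measure of background, the shares were 0.382% and 0.216% at medians of 16587 and 15058 UMIs, so the BrM-like cells were above background in both libraries. This background was uneven. Of the 6 and 4 unthinned Cxcr4 UMIs of CM-like cells, 5 and 4 came from the cluster led by Myh7, Tdgf1 and Ankrd1. The cluster led by Myh6, Actc1 and Tnnc1 had 0 in both libraries. Cxcl12 was found in 18.0% (14.7 to 21.5) and 33.0% (29.5 to 36.7) of BrM-like cells, against 0.714% and 0% of endocardium-like cells, where 0 of 150 cells allows, by a limit of 3 counts, up to 2.0%. Without thinning the BrM-like shares were 32.2% and 8.89% for Cxcr4 and 38.4% and 55.4% for Cxcl12. At least 2 UMIs of Cxcr4 were seen in 72 and 9 cells, and of Cxcl12 in 85 and 233 cells.

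The BrM-like class itself differed between the libraries. Of its 6 listed markers, 5 were found in at least 10% of its cells in the library labelled Ctrl and 3 in the other, where Lhx2, Myf5 and Myod1 were under that share. Lhx2, a homeobox gene of the arch muscle progenitors, was found in 67.0% (62.4 to 71.3) of Cxcr4-negative BrM-like cells of the library labelled Ctrl and in 67.1% (54.9 to 77.9) of Cxcr4-positive ones, after thinning. Myf5, a myogenic factor, was found in 19.0% (15.4 to 22.9) and 21.4% (12.5 to 32.9), and Tcf21, an early marker of these progenitors, in 76.6% (72.4 to 80.4) and 71.4% (59.4 to 81.6). For each of these 3 markers the intervals of positive and negative cells overlap. In the library labelled cKO, Lhx2 was in 3.18% and 9.09% of Cxcr4-negative and -positive cells, and Myf5 in 0.606% and 0 of 22. The part of this shift in markers in the Cxcr4 and Cxcl12 values was not tested. Neural crest markers summed to 12.7 and 5.69 CPM in BrM-like cells with 0 and 1 of 5 genes at 0, neural markers to 8.04 and 1.93 CPM with 1 of 4 genes at 0 in each, epithelial markers to 15.1 and 32.4 CPM with 0 of 5 at 0, and myeloid and megakaryocyte markers to 0.905 and 1.35 CPM with 6 and 3 of 9 genes at 0. Over all kept cells the sums were 9.12 and 5.48 CPM for neural crest and 3.44 and 2.11 CPM for neural markers. Those for epithelial markers were 105 and 152 CPM, and for myeloid and megakaryocyte markers 74.7 and 44.5 CPM.

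**Figure D1:**
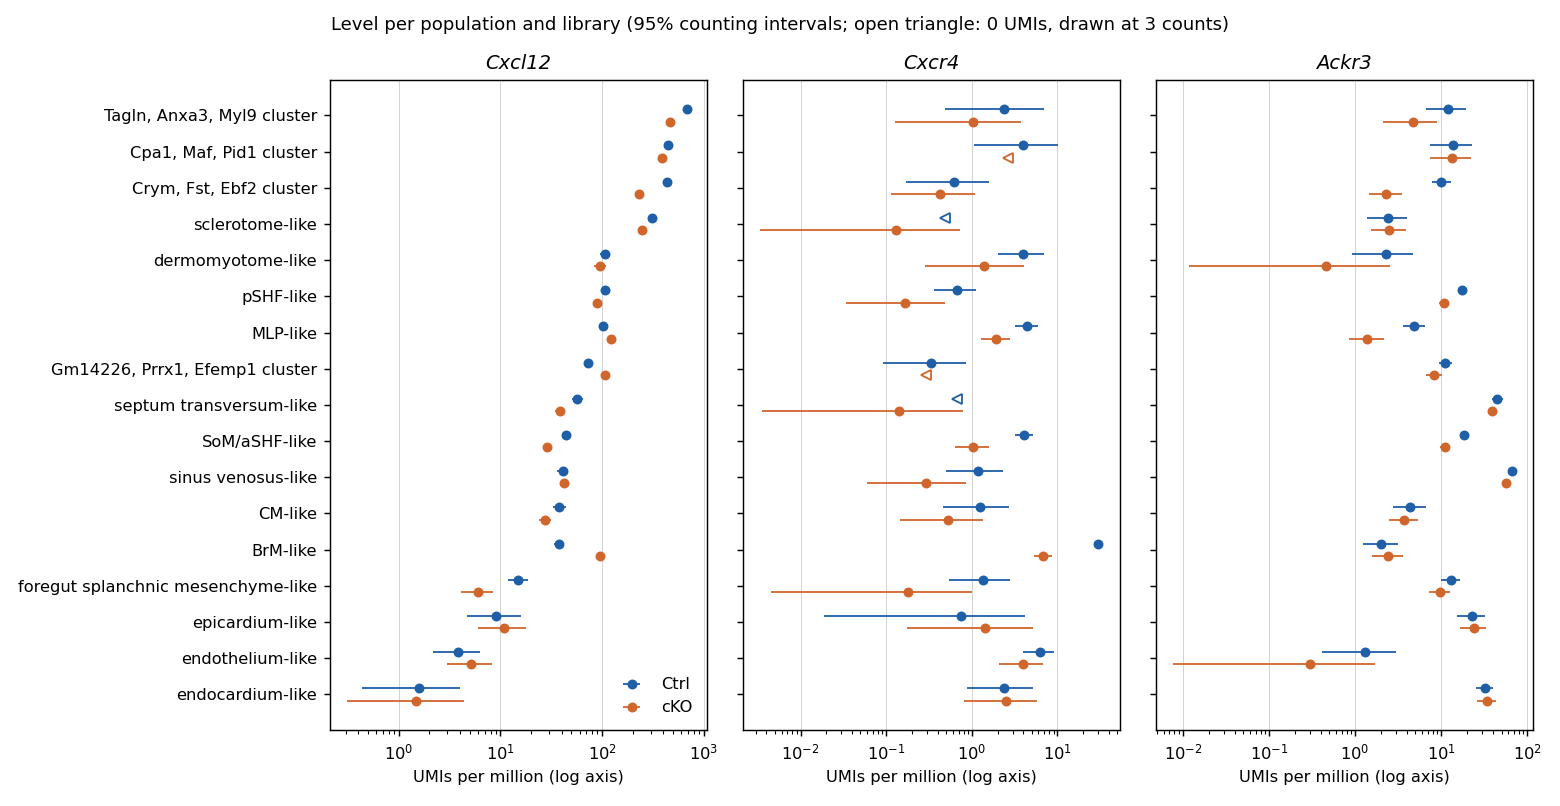
Level of Cxcl12, Cxcr4 and Ackr3 in CPM on a log axis, for the 17 populations with at least 50 cells in both libraries, ordered by Cxcl12 in Ctrl. Points are the 2 libraries with 95% counting intervals, and an open triangle marks 0 UMIs, drawn at the limit of 3 counts. BrM-like cells stand out for Cxcr4 at 30.1 CPM in Ctrl, sinus venosus-like cells for Ackr3 at 66.4 CPM, and the Tagln, Anxa3, Myl9 cluster for Cxcl12 at 681 CPM.

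Cxcl12 was highest in 3 unnamed clusters and in sclerotome-like cells. Its highest level in the library labelled Ctrl was 681 CPM (636 to 728) in an unnamed cluster led by Tagln, Anxa3 and Myl9, of which Tagln and Myl9 are contractile genes. It was followed by clusters led by Cpa1, Maf and Pid1, at 443 CPM (403 to 485), and by Crym, Fst and Ebf2, at 434 CPM (418 to 451), which overlap, and by sclerotome-like cells, the somite cells that form vertebrae, at 312 CPM (298 to 326). Dermomyotome-like cells at 107 CPM, pSHF-like cells at 106 CPM and MLP-like cells at 102 CPM could not be ordered among themselves. Next came the Gm14226, Prrx1, Efemp1 cluster at 72.1 CPM and septum transversum-like cells at 57.1 CPM. SoM/aSHF-like, sinus venosus-like, CM-like and BrM-like cells lay between 44.4 and 37.5 CPM, with overlapping neighbours. Foregut splanchnic mesenchyme-like cells had 14.9 CPM and epicardium-like cells 9.02 CPM. Vessel cells were lowest, with 3.86 CPM (2.16 to 6.36) in endothelium-like and 1.58 CPM (0.430 to 4.04) in endocardium-like cells. In this order 9 of 16 pairs of neighbours had overlapping intervals.

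In the library labelled cKO the order of Cxcl12 was much alike, with a Spearman rank correlation of 0.93 over the 17 populations, given as a description since the populations share library and depth. Its highest levels were lower, at 463 CPM (433 to 495) in the Tagln, Anxa3, Myl9 cluster and at 232 CPM (223 to 242) in the Crym, Fst, Ebf2 cluster, the latter by 1.87-fold (1.77 to 1.98). Sclerotome-like cells had 248 CPM and the Cpa1, Maf, Pid1 cluster had 390 CPM, where the interval of the log2 ratio, −0.38 to 0.01, held 0. BrM-like cells moved from the 13th to the 8th place of 17. The Gm14226, Prrx1, Efemp1 cluster was also higher, at 107 CPM, by 1.49-fold (1.36 to 1.63). MLP-like cells had 124 CPM, by 1.21-fold (1.12 to 1.31), and this direction depended on the clusters. It turned to a log2 ratio of −0.015 without integration and to −0.46 at resolution 0.6.

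Cxcl12 was lower by over 2-fold in foregut splanchnic mesenchyme-like cells, with 14.9 CPM (77 UMIs) and 5.96 CPM (33 UMIs), 2.51-fold (1.65 to 3.90), where 1.94% of genes were at least 2-fold lower. This call depended on the cells used, the log2 ratio being −0.80 with presumed doublets kept, −0.82 with all deposited cells and −0.91 in Y-linked cells. Other populations passed 2-fold under some settings, with −1.03 in Xist cells, −1.04 with first-pass clusters and −1.19 without integration for the Crym, Fst, Ebf2 cluster, and −1.10 in Y-linked cells for septum transversum-like cells, whose Xist cells gave 0.048, the other direction. Within the larger classes the difference was uneven. In the CM-like cluster led by Myh7, Tdgf1 and Ankrd1, genes of the forming outflow tract and ventricle, Cxcl12 was at 101 and 59.8 CPM. In the other CM-like clusters it was at 7.26 and 9.85 CPM (led by Myh6, Actc1 and Tnnc1) and at 33.0 and 42.3 CPM (led by Myl2, Myh7 and Nppa), where the intervals of the ratio held 0. In the pSHF-like cluster led by Igfbp7, Dock9 and Arl4a it was at 31.3 and 15.9 CPM, and in the pSHF-like cluster led by Wnt4, Nkx6-1 and Cxcl13 at 139 and 133 CPM. In SoM/aSHF-like cells it was at 44.4 and 29.0 CPM. There the log2 ratio of −0.62 (−0.78 to −0.46) turned to 0.19 with the clusters of the first pass.

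Cxcr4 was narrow. BrM-like cells made up 7.90% of the kept cells of the library labelled Ctrl and held 58.7% of its 509 Cxcr4 UMIs, and in the other library they were 7.65% of the cells and held 44.1% of 161 UMIs. Its level in the library labelled Ctrl was 6.17 CPM (3.96 to 9.18) in endothelium-like cells, 4.43 CPM (3.22 to 5.95) in MLP-like cells and 4.06 CPM (3.17 to 5.13) in SoM/aSHF-like cells, with overlapping intervals. Among neighbours in the order of this library only the gap between BrM-like cells and the next population exceeded counting error, and 15 of 16 pairs overlapped. Populations further apart did differ, pSHF-like cells being at 0.663 CPM (0.362 to 1.11), below those 3. Sclerotome-like and septum transversum-like cells had 0 UMIs. The limit of 3 counts is 0.486 and 0.680 CPM there, and the exact intervals reach 0.597 and 0.836 CPM. In the library labelled cKO all 16 pairs overlapped, BrM-like cells still being highest at 6.85 CPM and endothelium-like cells next at 3.92 CPM.

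The lower Cxcr4 was not limited to BrM-like cells. Only 4 populations had at least 20 Cxcr4 UMIs in both libraries together and a UMI in each, and all 4 had the lower value in the library labelled cKO, 3 of them by at least 2-fold. In SoM/aSHF-like cells 70 UMIs (4.06 CPM) stood against 20 (1.03 CPM), 3.95-fold (2.37 to 6.85), where 1.24% of genes past the floor and 8.77% without a floor were at least 2-fold lower. Of these, 67 and 20 UMIs came from the cluster led by Slc2a3, Ppp2r2b and Dkk1, at 7.53 and 2.01 CPM. In MLP-like cells 44 UMIs (4.43 CPM) stood against 28 (1.94 CPM), 2.29-fold (1.39 to 3.82), where these shares were 4.85% and 12.9%. The MLP-like class differed too, with all 8 of its markers found in at least 10% of cells labelled Ctrl and 5 in those labelled cKO, where Aplnr, Fgf10 and Foxf1 were not, and the part of this in its Cxcr4 and Ackr3 values was not tested. In endothelium-like cells 24 against 13 UMIs gave a log2 ratio of −0.66, whose interval, −1.75 to 0.37, held 0. Over the alternative settings this ratio ran from −2.83 to 1.05 and so changed sign. That of MLP-like cells ran from −1.51 to −0.96, the latter under 2-fold. Cxcr4 was under the floor of 10 CPM in these 3 populations and over all kept cells, so the shares without a floor are those that hold genes as low as it. Over all kept cells it stood at 4.33 and 1.18 CPM, 3.68-fold (3.08 to 4.42), where 0.83% of genes past the floor and 8.72% without it were at least 2-fold lower, and with the mixture of populations of the library labelled Ctrl the value of the other library would be 1.25 CPM. The other 13 populations had under 20 Cxcr4 UMIs or none in a library.

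**Figure D2:**
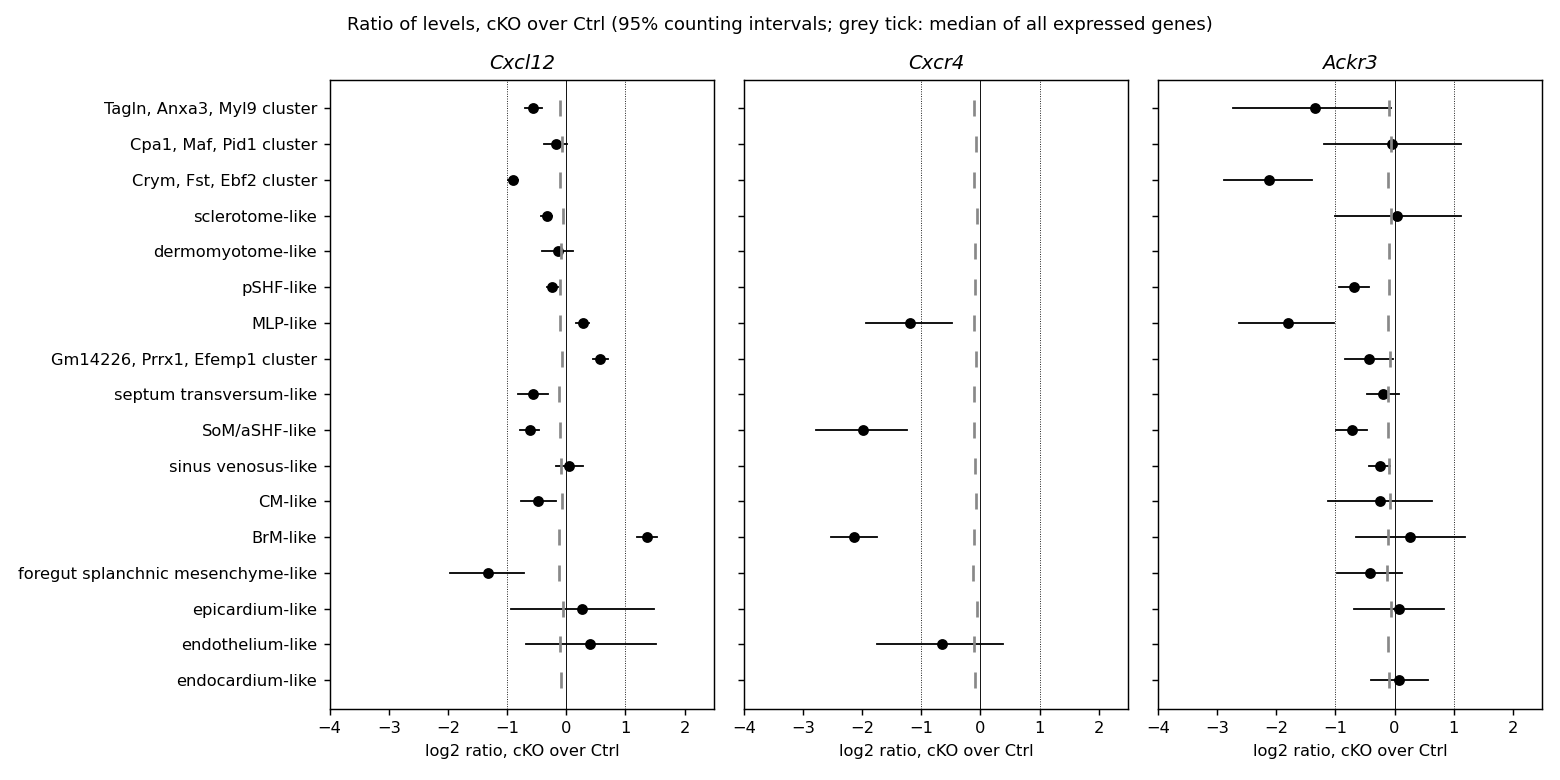
Log2 ratio of levels, cKO over Ctrl, with 95% counting intervals, for populations with at least 20 UMIs of the gene in both libraries together and a UMI in each. Grey ticks are the median of all expressed genes and dotted lines mark 2-fold. Cxcr4 is below 0 in all 4 populations shown, Cxcl12 is at 1.36 in BrM-like cells and at −1.33 in foregut splanchnic mesenchyme-like cells, and Ackr3 is lowest at −2.12 in the Crym, Fst, Ebf2 cluster.

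Ackr3 was highest in sinus venosus-, septum transversum-, endocardium- and epicardium-like cells. In the library labelled Ctrl it was highest in sinus venosus-like cells, the inflow of the heart, at 66.4 CPM (60.4 to 72.8), then in septum transversum-like cells, which lie beside the liver bud, at 44.9 CPM (38.8 to 51.6). Endocardium-like cells had 32.0 CPM (25.4 to 39.8) and epicardium-like cells 22.6 CPM (15.2 to 32.2). SoM/aSHF-like cells had 18.4 CPM and pSHF-like cells 17.3 CPM, and the order from septum transversum-like cells down to the Crym, Fst, Ebf2 cluster at 10.0 CPM held no pair of neighbours without overlap. MLP-like cells had 4.83 CPM, CM-like cells 4.39 CPM, sclerotome-like cells 2.43 CPM, dermomyotome-like cells 2.31 CPM and BrM-like cells 2.01 CPM. Endothelium-like cells came last at 1.29 CPM (0.418 to 3.0), although endocardium-like cells, the inner lining of the heart and also endothelial, were among the highest. From MLP-like cells down all neighbours overlapped, so the lowest place is not resolved. After thinning, 10.7% (6.12 to 17.1) and 14.0% (8.88 to 20.6) of endocardium-like cells had a UMI of Ackr3, against 0.455% and 0.465% of endothelium-like cells.

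Between the libraries the order of Ackr3 was much alike, with a Spearman rank correlation of 0.95, and the same 4 populations were highest. Lower down, the Crym, Fst, Ebf2 cluster went from above CM-, sclerotome- and BrM-like cells to just below them, with overlapping intervals. Endocardium-like cells had 33.8 CPM and epicardium-like cells 23.7 CPM in the library labelled cKO, with log2 ratios of 0.08 (−0.41 to 0.57) and 0.07 (−0.69 to 0.84). Sinus venosus-like cells had 55.8 CPM and septum transversum-like cells 39.1 CPM, with log2 ratios of −0.25 (−0.43 to −0.07) and −0.20 (−0.47 to 0.07). Lower values were found in several other populations. In the Crym, Fst, Ebf2 cluster 64 UMIs (10.0 CPM) stood against 22 (2.31 CPM), 4.34-fold (2.64 to 7.40), where 2.10% of genes were at least 2-fold lower. In MLP-like cells 48 UMIs (4.83 CPM) stood against 20 (1.38 CPM), 3.49-fold (2.03 to 6.21), with 12.9% of genes at least 2-fold lower without a floor. With all cells of the deposited matrices the log2 ratio in MLP-like cells was −0.41 in place of −1.80, under 2-fold. In the Tagln, Anxa3, Myl9 cluster 15 UMIs stood against 9, 2.55-fold (1.05 to 6.62). There 4.9% of genes past the floor were at least 2-fold lower, but Ackr3 is short of its 30 UMIs and not among them, and with all deposited cells the log2 ratio was −0.94, under 2-fold. SoM/aSHF-like cells had 11.1 CPM, 1.66-fold lower (1.39 to 1.98), and pSHF-like cells 10.8 CPM, 1.61-fold lower (1.35 to 1.92). Of 15 populations with at least 20 UMIs and a UMI in each library, 11 had a lower and 4 a higher value of Ackr3 in the library labelled cKO, 3 and 0 of them by at least 2-fold. The interval lay below 0 in 7, and above 0 in none. Over the 17 populations a gene's interval lay below 0 for between 11.8% and 45.0% of genes, with a median of 32.3%.

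The embryos of each pool were of both sexes, and cells were split by Xist and Y-linked UMIs. In BrM-like cells the log2 ratio of Cxcr4 was −2.09 (−2.64 to −1.58) in Xist cells and −2.24 (−2.95 to −1.58) in Y-linked cells. Cxcl12 was higher in the library labelled cKO in both, by 1.54 (1.31 to 1.77) and 0.96 (0.65 to 1.27) on the log2 scale, the latter being 1.94-fold and so short of the 2-fold call. For Ackr3 over all kept cells the ratio was −0.057 (−0.19 to 0.07) in Xist cells and −0.92 (−1.10 to −0.74) in Y-linked cells. In SoM/aSHF-like cells Ackr3 was lower in both, by −0.53 (−0.84 to −0.22) and −1.12 (−1.67 to −0.58), as it was in MLP-like cells at −1.66 (−2.82 to −0.59) and −1.93 (−3.56 to −0.52). Sex and embryo cannot be told apart in a pool, and these splits are not replicates.

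The populations highest in Cxcl12 and in Ackr3 were different ones. The 4 populations with the highest Cxcl12, namely the Tagln, Anxa3, Myl9 cluster, the Cpa1, Maf, Pid1 cluster, the Crym, Fst, Ebf2 cluster and sclerotome-like cells, made up 13.5% of the kept cells of the library labelled Ctrl. They held 48.5% of its Cxcl12 UMIs, 2.16% of its Cxcr4 UMIs and 5.82% of its Ackr3 UMIs. In the other library they were 16.4% of cells and held 42.6%, 4.35% and 3.93%. The 4 populations with the highest Ackr3, sinus venosus-, septum transversum-, endocardium- and epicardium-like cells, held 41.1% and 57.5% of Ackr3 UMIs with 13.1% and 16.5% of cells, and 4.43% and 5.72% of Cxcl12 UMIs. These sets were chosen by the levels themselves, so the shares are a description. In the library labelled Ctrl pSHF-like cells held 18.0% of Cxcl12 UMIs and 19.7% of Ackr3 UMIs, near their 18.1% of cells. SoM/aSHF-like cells, 13.6% of cells, held 6.17% and 17.1%, and 13.8% of Cxcr4 UMIs.

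Within single cells ligand and receptor were seldom seen together. Of 518 thinned BrM-like cells of the library labelled Ctrl, 12 had UMIs of both Cxcl12 and Cxcr4, or 2.32% (1.2 to 4.01), and the product of the single shares gives 12.6 cells. In the library labelled cKO it was 4 of 682 cells, or 0.587% (0.160 to 1.49), with a product of 7.26 cells. Over all kept cells 23 of 6520 and 9 of 8870 cells had both, with products of 34.8 and 15.1. Cxcl12 and Ackr3 were together in 106 and 85 cells, with products of 130 and 138, and Cxcr4 and Ackr3 in 3 and 1 cells. Within sinus venosus-like cells, which carry the most Ackr3, 16 and 25 cells had Cxcl12 and Ackr3 with products of 16.1 and 27.4. At this depth a cell with both transcripts will often show 1 or none.

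**Figure D3:**
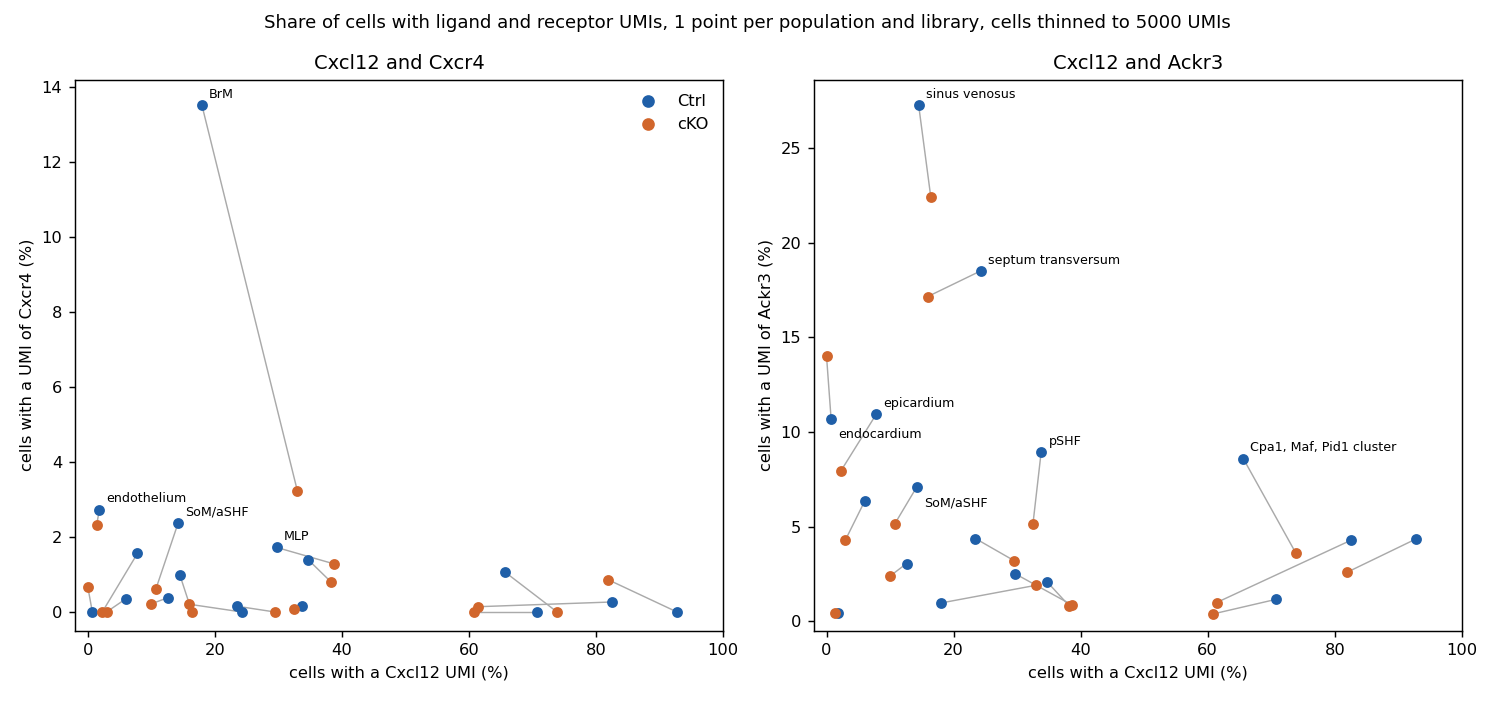
Share of cells with a Cxcl12 UMI (horizontal, %) against the share with a UMI of Cxcr4 or Ackr3 (vertical, %), 1 point per population and library, each cell thinned to 5000 UMIs, with lines joining the libraries. BrM-like cells move from 18.0% and 13.5% in Ctrl to 33.0% and 3.23% in cKO, and sinus venosus-like cells lie highest for Ackr3 at 27.3% and 22.4%.

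The genes whose levels were most like those of each were found over 47 sums of a cluster and library, by Pearson's r of log2(CPM + 5) among 8368 genes with at least 20 CPM in a sum, a description since the sums share library and depth. Cxcl12 was closest to Islr (0.82), Foxd1 (0.81), Pdgfrb (0.80), Cd248 (0.80) and Dclk1 (0.79). Pdgfrb and Cd248 encode surface proteins of perivascular and other mesenchymal cells, and Foxd1 a forkhead factor of stroma. Cxcr4 was closest to Edn1 (0.75), Tlx1 (0.74), Kazald1 (0.72), Vgll3 (0.71) and Nedd9 (0.71). Edn1 encodes the signal endothelin 1, Tlx1 a homeobox factor, Vgll3 a cofactor of TEAD factors and Nedd9 a scaffold at cell adhesions. Ackr3 was closest to Prrt4 (0.76), Adamts1 (0.74), Gata6 (0.70), Mrpl14 (0.70) and Myrf (0.69). Gata6 encodes a factor of heart and gut mesoderm and Adamts1 a secreted protease. Among the 3 genes themselves r was −0.002 for Cxcl12 with Cxcr4, −0.22 for Cxcl12 with Ackr3 and −0.29 for Cxcr4 with Ackr3.

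Few other chemokines and chemokine receptors reached 10 CPM in any cluster, while most of the shared signalling machinery did. A list of 98 genes in 11 roles around Cxcl12 had 97 in the files. All 7 G protein genes, all 7 of receptor desensitisation, all 8 of heparan sulphate presentation and 12 of 14 effectors reached 10 CPM in at least 1 sum of a cluster and library. Of 24 other chemokines, 19 had a UMI and 6 reached 10 CPM in such a sum, namely Cxcl5, Cxcl13, Cxcl16, Ccl2, Ccl7 and Ccl25. Of 21 other chemokine receptors, 19 had a UMI and only Ackr1 reached 10 CPM. Cd74, the coreceptor through which Cxcr4 answers to the cytokine Mif, did not. Mif and Hmgb1, other ligands tied to Cxcr4, were high and close between the libraries in BrM-like cells, at 2351 and 2631 CPM for Mif and 3703 and 3521 CPM for Hmgb1. Ccl2 was found in endocardium-like cells at 35.9 and 80.1 CPM, and Cxcl13 in pSHF-like cells at 202 and 194 CPM. Adm, which encodes adrenomedullin, a peptide that Ackr3 also takes up, was at 52.6 and 51.1 CPM in CM-like cells, at 41.4 and 61.1 CPM in sinus venosus-like cells and at 43.5 and 35.1 CPM in septum transversum-like cells. Its receptor subunits Calcrl and Ramp2 were highest in endocardium-like cells, at 365 and 275 CPM for Calcrl and at 1125 and 1120 CPM for Ramp2, where Ackr3 is also high. In endothelium-like cells, which had almost no Ackr3, they were at 157 and 113 CPM and at 911 and 943 CPM.

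In BrM-like cells 34 of the listed genes passed the floor, and 1 was at least 2-fold higher and 2 at least 2-fold lower in the library labelled cKO. Over all genes these shares were 1.45% and 4.22%, so the counts are near the background. Their median log2 ratio was −0.14, beside −0.12 over all genes tested. Elmo1, which with Dock1 activates Rac downstream of Cxcr4, had 16.0 CPM against 3.66, with a log2 ratio of −2.13 (−2.68 to −1.61), and Dock1 was at 53.2 and 33.2 CPM. Hs6st2, which adds the 6-O-sulphates of heparan sulphate, was at 136 and 52.7 CPM, −1.37 (−1.52 to −1.23). Foxc1, a forkhead factor known to drive Cxcr4 in endothelium, was at 19.0 and 60.3 CPM, 1.67 (1.43 to 1.91). In MLP-like cells Foxc1 was at 103 and 62.0 CPM, −0.73 (−0.87 to −0.60). Any link between Foxc1 and Cxcr4 in either population was not tested. Of the Gi subunits, Gnai2 was at 203 and 209 CPM, Gnai3 at 157 and 144 CPM and Gnai1 was higher in the library labelled cKO, at 16.3 CPM there, with a log2 ratio of 0.51 (0.16 to 0.86). Hif1a was at 94.6 and 73.4 CPM, −0.37. Calcrl was at 7.84 and 14.8 CPM.

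**Figure D4:**
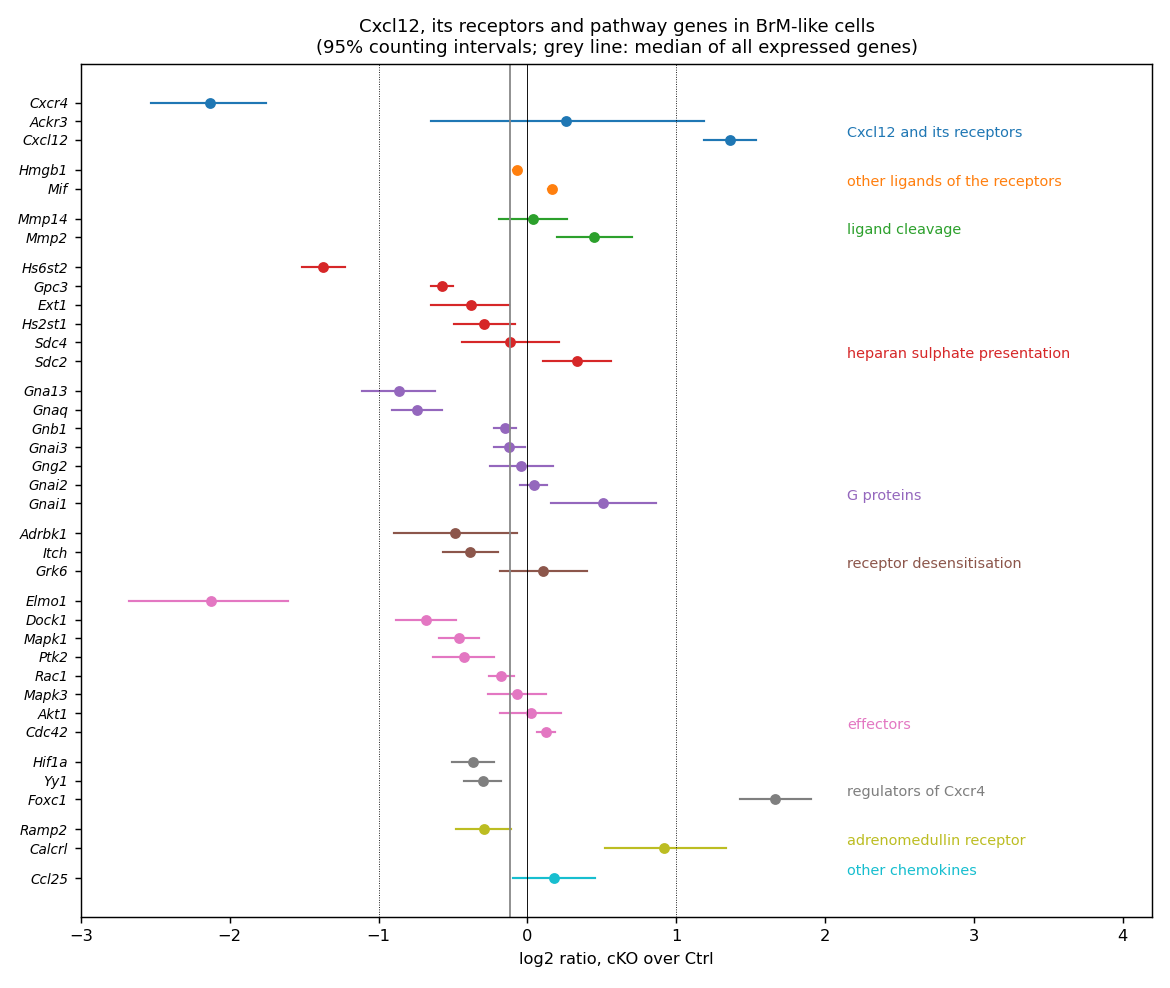
Log2 ratio, cKO over Ctrl, of Cxcl12 and its receptors and of the 34 listed genes past the floor in BrM-like cells, coloured by role, with 95% counting intervals. The grey line is the median of all expressed genes and dotted lines mark 2-fold. Cxcr4, Elmo1 and Hs6st2 lie below the lower line, and Foxc1 and Cxcl12 above the upper one.

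Elsewhere few listed genes passed 2-fold. The share of all genes that did so in either direction was 1.17% in pSHF-like cells, 1.21% in the Gm14226, Prrx1, Efemp1 cluster, 1.7% in SoM/aSHF-like, 1.83% in sinus venosus-like, 1.99% in CM-like and 2.04% in septum transversum-like cells. It was 2.53% in foregut splanchnic mesenchyme-like cells, 2.85% in the Crym, Fst, Ebf2 cluster, 3.41% in sclerotome-like, 4.04% in endocardium-like, 4.36% in endothelium-like, 5.13% in dermomyotome-like and 5.9% in MLP-like cells. No listed gene did in MLP-like cells (36 tested), SoM/aSHF-like cells (35), pSHF-like cells (36), sclerotome-like cells (35), septum transversum-like cells (38), sinus venosus-like cells (37) or the Gm14226, Prrx1, Efemp1 cluster (36). Higher and lower listed genes were 1 and 1 of 34 in CM-like and 0 and 1 of 34 in foregut splanchnic mesenchyme-like cells. They were 2 and 1 of 42 in endothelium-like and 2 and 0 of 44 in endocardium-like cells. In dermomyotome-like cells they were 0 and 3 of 37, and in the Crym, Fst, Ebf2 cluster 0 and 2 of 36. In the Crym, Fst, Ebf2 cluster, where Cxcl12 and Ackr3 were both lower, Ramp2 was at 77.1 and 27.8 CPM and Ndst1, which sulphates heparan, at 14.7 and 7.14 CPM. In endothelium-like cells Cxcl5 was at 2.57 and 13.9 CPM, Ackr1, a chemokine sink of venules, at 4.89 and 12.4 CPM, and the protease Mmp9, which can cleave Cxcl12, at 17.2 and 7.23 CPM. In endocardium-like cells Ccl2 and Ccl7 were both higher, by 1.16 on the log2 scale. In foregut splanchnic mesenchyme-like cells Sdc2, a heparan sulphate proteoglycan, was at 29.9 and 13.9 CPM. In CM-like cells Hs6st1 was at 27.4 and 12.2 CPM and Ramp2 at 5.22 and 10.8 CPM. In dermomyotome-like cells Jak2 was at 10.6 and 3.69 CPM, Dock1 at 52.4 and 23.1 CPM and Gnaq at 79.5 and 39.6 CPM.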

How the data were processed

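Single-cell RNA was measured in 2 libraries (Chromium, 3′ end), 1 per genotype, grouped by the labels. The deposited values are raw UMI counts for each gene in each cell. The authors aligned reads to mm10 and counted UMIs with Cell Ranger 3.1.0, without further normalization. Counts near the 3′ end do not allow levels to be compared between genes.

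Cells with at least 1000 genes and at most 10% mitochondrial UMIs were kept (411 and 508 left out). Scrublet (scanpy 1.11.5) called 0% and 7.81% of cells by its own threshold, so the highest-scoring cells were removed at 0.8% per 1000 cells (416 and 804). Xist together with Y-linked UMIs were found in 37.7% and 34.0% of the removed and 1.30% and 1.26% of the kept cells. Clusters came from Seurat 5.3.0 (R 4.3.3), with 2000 variable genes, 30 dimensions, integration by reciprocal principal components and resolution 1, without 236 excluded genes and 767 genes that differed between libraries. A cluster took a class name given at least 3 listed markers and over 50% of the list, each in at least 10% of cells and at least 0.5 higher on the log2 scale, and at least 1 of them, with no more of another class, among its 10 leading genes. These thresholds were chosen with the data in view, and rebuilt names can differ from the study's. Not all leading and marker genes are reported here by name.

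UMIs were summed per population and library and divided by its total (CPM). Populations compared held between 1021240 and 21130759 UMIs. A limit of 3 counts, used where 0 were counted, equalled 0.142 to 2.94 CPM and lies below the upper end of the exact intervals. Intervals are exact Poisson, exact conditional and Clopper-Pearson ones at 95%. The members, lists and tests were chosen with earlier results of these data known. Named genes were the 3 genes in every population, the 5 most alike to each, and, of the listed pathway, up to 3 genes past 2-fold in each direction per population plus other ligands, coreceptor and adrenomedullin receptor genes that reached 10 CPM. Further chemokines, Dock1, Gi subunits and Hif1a in BrM-like cells, and Aplnr and Foxc1 in MLP-like cells, were named after their values were seen. Intervals, fold calls and thinning were tested on simulated data.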

Additional observations from a re-analysis of the deposited data

Results flagged for a closer look

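Cxcl12 went opposite ways in different populations of the same 2 libraries. Among populations whose counting interval did not hold 0, its log2 ratio, cKO over Ctrl, was positive in 3 and negative in 8 of 17. Over the same populations a gene's interval lay above 0 for 7.44% to 22.8% of genes, with a median of 16.8%, and below 0 for 11.8% to 45.0%, with a median of 32.3%, so the 3 positive values are near the share over all genes. It was 1.36 in BrM-like cells, 0.58 in the Gm14226, Prrx1, Efemp1 cluster and 0.28 in MLP-like cells. It was −1.33 in foregut splanchnic mesenchyme-like cells, −0.90 in the Crym, Fst, Ebf2 cluster, −0.62 in SoM/aSHF-like cells, −0.56 in the Tagln, Anxa3, Myl9 cluster and −0.56 in septum transversum-like cells. It was −0.47 in CM-like, −0.33 in sclerotome-like and −0.24 in pSHF-like cells. Of these 11 populations, MLP-like, SoM/aSHF-like, pSHF-like and septum transversum-like cells changed direction under at least 1 alternative, reaching −0.46, 0.19, 0.034 and 0.048. With 1 library per group the difference between populations was not tested.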

How the results depend on the processing

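Of 438 log2 ratios recomputed over 9 settings, 215 had a main interval that did not hold 0, and of these 210 kept their direction and 5 reversed. The reversed ones were all of Cxcl12. In SoM/aSHF-like cells it was 0.19 with the first-pass clusters, in MLP-like cells −0.015 without integration and −0.46 at resolution 0.6, in pSHF-like cells 0.034 in Y-linked cells and in septum transversum-like cells 0.048 in Xist cells, and the cause was not tested. In BrM-like cells the ratio ranged from −2.24 to −1.99 for Cxcr4 and from 0.96 to 1.54 for Cxcl12. Splitting by sex gave 1.54 (Xist) and 0.96 (Y-linked) for the latter, and over all kept cells −0.32 and −0.039 for Cxcl12, −1.62 (Y-linked) for Cxcr4, and −0.057 and −0.92 for Ackr3. Scaling by the median gene gave −0.065 for Cxcl12 and −0.27 for Ackr3 over all kept cells. Shares moved with depth. Without thinning they were 38.4% and 55.4% for Cxcl12 and 32.2% and 8.89% for Cxcr4 in BrM-like cells, at 2500 UMIs 8.64% and 20.7% and 5.76% and 1.31%, and with at least 2 UMIs 1.31% for Cxcr4 in cKO. Without the floor on low genes 1601 of 14369 genes (11.1%) were at least 2-fold lower and 749 (5.21%) higher in BrM-like cells, against 323 and 111 of 7648, and of 58 listed genes 6 and 6.

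No paired analysis was possible because each group has 1 library, and leaving out a library was likewise not possible. Low counts limit Cxcr4 outside BrM-like cells most. In the alternative clusterings between 82.2% and 95.4% of kept cells stayed in the same population.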
